A study of Mus musculus with 9 samples.

Results

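The genes examined are 32 genes of cholesterol synthesis, sterol sensing, intracellular transport, efflux and storage, taken by gene symbol from the deposited expression tables. All 32 were among the 18639 entries of each table, and all 32 passed the filter on low values (1 TPM or more in at least 3 libraries), which left 13829 genes for testing. Bulk RNA sequencing had been carried out on tumour tissue from mouse brains on day 5 after resection of tumours of CT2A, a mouse glioma cell line. There were 3 groups of 3 libraries, all from brains with wild-type CT2A tumours that had been resected. One group was treated with sECM only (a term the labels do not expand), one with GFP-TC, the control cells, and one with ThTC, CT2A cells secreting both IFNβ and GM-CSF. The labels give no strain, sex, age or number of animals, and do not say whether treatment cells were still in the tissue. Nothing ties each library to its own animal, and the p-values below therefore measure only the spread among these libraries, which may be technical.

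Cells make cholesterol from acetyl-CoA through the mevalonate pathway, which runs to farnesyl diphosphate, and then through squalene and lanosterol to cholesterol. When sterols in the endoplasmic reticulum run low, the escort protein SCAP carries the transcription factor SREBP-2 (gene Srebf2) to the Golgi for cleavage, and the freed factor switches on the enzymes of the pathway; when sterols are plentiful, INSIG proteins hold the complex back. Cholesterol in excess is handled in the opposite way: oxysterols activate the liver X receptors (Nr1h2 and Nr1h3), which switch on the exporters ABCA1 and ABCG1. In the brain, cholesterol is made locally because lipoproteins of the blood do not cross the blood-brain barrier, oligodendrocytes use much of it for myelin, and macrophages that take up cell debris and myelin rely on lysosomal transport and efflux.

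The 32 genes were ordered by role: 7 enzymes of the mevalonate branch (Acat2 to Fdps), 11 of the sterol branch (Fdft1 to Dhcr7), 5 genes of sterol sensing, 3 of intracellular transport and 6 of efflux, liver X receptors, storage and hydroxylation. Because SREBP-2 acts on promoters together with the CCAAT-binding factor NF-Y, the promoters of the genes were searched on both strands for TCACNCCAC, a form of the sterol regulatory element, for CCAAT, and for 2 copies of AGGTCA spaced by 4 bases, a form of the liver X receptor element; the 3 motifs do not contain each other. The RefSeq promoters of build GRCm38.p6, which cover 250 bases before to 50 bases after each transcription start, held 35 windows for 26 of the 32 genes. CCAAT was found in 14 of the 18 windows of the synthesis enzymes (77.8%) and in 37.4% of all 32851 promoter windows of 300 bases. It was found in 1 of the 6 windows of the efflux genes, that of Soat1. An exact match to this form of the sterol regulatory element was found in 1 window, that of Hmgcs1 (1.24% of all windows). This form of the liver X receptor element was found in 0 of the 35 (0.0152% of all windows). Other forms of the 2 elements were not searched, so a window without a match may still hold one. These matches describe the letters of the windows and do not show binding. The 180 bases before the start of 5 genes whose levels are given below are shown as examples, 5′ to 3′ along the gene, with the sterol regulatory element and CCAAT, or its reverse complement ATTGG, in capitals:
Hmgcs1 (chr13:119690171-119690350, plus strand): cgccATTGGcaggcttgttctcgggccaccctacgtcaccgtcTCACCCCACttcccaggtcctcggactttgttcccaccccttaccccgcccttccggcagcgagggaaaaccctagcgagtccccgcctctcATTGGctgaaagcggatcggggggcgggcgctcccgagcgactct
Idi1 (chr13:8885426-8885605, plus strand): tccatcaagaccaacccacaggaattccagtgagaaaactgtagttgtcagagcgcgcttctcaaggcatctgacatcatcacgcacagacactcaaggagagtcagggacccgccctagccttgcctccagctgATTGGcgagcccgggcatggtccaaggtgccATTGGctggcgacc
Cyp51 (chr5:4104698-4104877, minus strand): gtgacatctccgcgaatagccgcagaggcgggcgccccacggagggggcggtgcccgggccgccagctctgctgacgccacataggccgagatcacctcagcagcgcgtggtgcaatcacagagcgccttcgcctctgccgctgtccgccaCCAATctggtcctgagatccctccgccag
Msmo1 (chr8:64733579-64733758, minus strand): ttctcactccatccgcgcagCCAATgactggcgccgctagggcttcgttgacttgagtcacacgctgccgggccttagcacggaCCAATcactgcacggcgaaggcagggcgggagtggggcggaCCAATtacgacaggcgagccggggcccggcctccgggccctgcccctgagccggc
Srebf2 (chr15:82147089-82147268, plus strand): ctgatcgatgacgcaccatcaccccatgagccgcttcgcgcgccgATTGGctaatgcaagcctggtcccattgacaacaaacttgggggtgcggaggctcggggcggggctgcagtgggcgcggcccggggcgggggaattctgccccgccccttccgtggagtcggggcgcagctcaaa

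**Figure D1:**
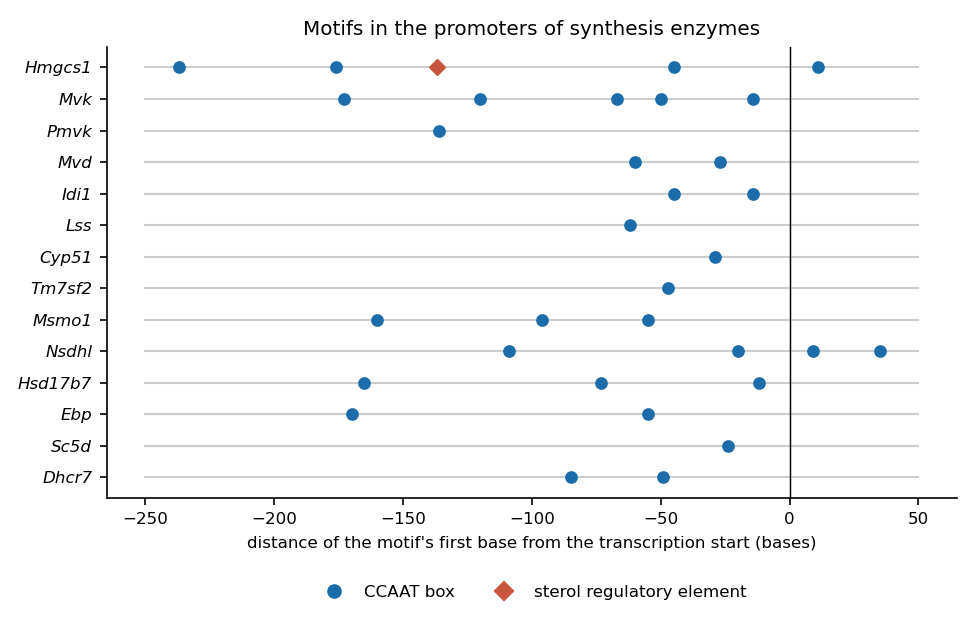
Position of CCAAT (circles) and of the sterol regulatory element TCACNCCAC (diamond) in the promoter windows of the 14 synthesis enzymes with a match, as distance in bases from the transcription start (0; upstream is negative; windows of a gene with several starts are drawn on 1 line). Of the 18 enzymes, 15 had a promoter window, and 14 of these had at least 1 CCAAT. Hmgcs1 alone among the 14 has an exact match to TCACNCCAC, 137 bases upstream. Other forms of the element were not searched.

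TPM, the transcript abundance per gene length and library total, has a fixed sum per library, so read depth cannot be seen in it; the labels give 4.47 Gb for every library. The libraries varied in the tissue they held. The summed TPM of 11 oligodendrocyte markers ran from 332 to 738 with sECM only, from 185 to 2069 with GFP-TC and from 165 to 2513 with ThTC, with replicate 1 lowest and replicate 3 highest in both cell-treated groups. The sum of 11 neuron markers ran from 272 to 505, 109 to 1624 and 196 to 1893. The summed TPM of 13 monocyte and macrophage markers ran from 3214 to 4094 with sECM only, from 1802 to 4516 with GFP-TC and from 4207 to 6237 with ThTC. All 5 glioma and progenitor markers (Sox2, Olig2, Nes, Vim and Cd44) were present, at a sum of 3619 to 5289 TPM over the 9 libraries, and no marker of these lists was at 0 in a whole group. In bulk tissue, fewer cells of a type and less RNA per cell cannot be told apart.

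The synthesis enzymes differed among libraries of the same cell-treated group. The highest library was 1.56 times the lowest at the median of the 18 enzymes and 1.62 times at the median of all tested genes above 0 in every library, so their range was not wide for these data. Their median level was highest in GFP-TC 1 and ThTC 1, intermediate in the 3 sECM only libraries, and lowest in replicates 2 and 3 of both cell-treated groups. Summed over the 18 enzymes, the level was 1095, 949 and 1009 TPM with sECM only, 1184, 841 and 857 TPM with GFP-TC and 1093, 775 and 803 TPM with ThTC (replicates 1, 2 and 3). GFP-TC 1 held the highest value of the 9 libraries for 10 of the 18 enzymes (55.6%, and 9.73% of all tested genes), while ThTC 2 held the lowest for 8 of 18 (44.4%, and 23.0% of all tested genes). To set this apart from shifts that touch all genes, each gene's log2(TPM + 1) was centred on its mean over the 9 libraries, and the median of all tested genes in the library was subtracted from the median of the 18 enzymes. On that scale the enzymes stood at 0.17, 0.06 and 0.05 in the sECM only libraries, 0.31, -0.24 and -0.14 in the GFP-TC libraries, and 0.29, -0.19 and -0.23 in the ThTC libraries.

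**Figure D2:**
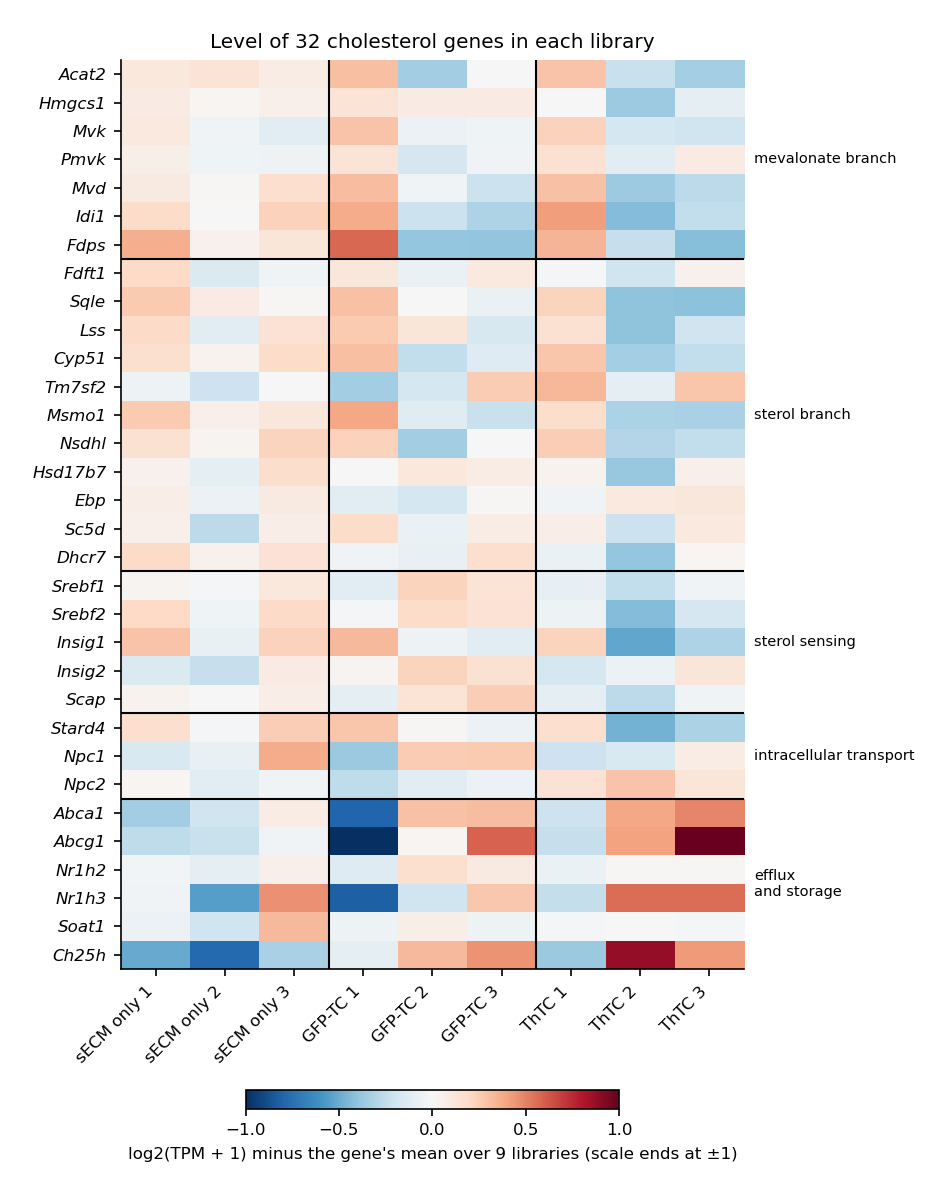
Heat map of the 32 genes (rows, by role) in the 9 libraries (columns, by group), coloured by log2(TPM + 1) minus the gene's mean over the 9 libraries. The synthesis rows are reddest in GFP-TC 1 and ThTC 1 and mostly blue in ThTC 2, where Abca1, Nr1h3 and Ch25h in the lowest block are red.

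The farnesyl end of the mevalonate branch varied most. Fdps, the synthase that makes farnesyl diphosphate, the shared precursor of sterols and protein prenyl groups (chromosome 3, 89093588 to 89101967, GRCm38.p6), was at 289, 231 and 244 TPM with sECM only, 335, 171 and 170.5 TPM with GFP-TC and 284, 190.9 and 166 TPM with ThTC, a 2.01-fold range and the widest of the 18 enzymes. Idi1, the isomerase that supplies the pathway's allylic building block (chromosome 13, 8885606 to 8892396), was at 57.4, 50.6 and 59.5 TPM, 65.7, 43.2 and 40.5 TPM, and 67.7, 37.2 and 42.3 TPM in the same order. For both genes replicates 2 and 3 of the cell-treated groups were below all 3 sECM only libraries, while replicate 1 was above all 3 of them, except that Fdps in ThTC 1 was below sECM only 1. Hmgcs1, which makes HMG-CoA (chromosome 13, 119690351 to 119708260), had another pattern: 64.8, 62.1 and 63.3 TPM with sECM only, 67.1, 64.6 and 64.8 TPM with GFP-TC, and 61.3, 47.4 and 57.2 TPM with ThTC. All 3 ThTC libraries were below all 6 others. The remaining 4 enzymes of the branch, Acat2, Mvk, Pmvk and Mvd, lay between 19.05 and 48.9 TPM, and the highest library was 1.26 (Pmvk) to 1.62 (Mvd) times the lowest.

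In the sterol branch, Sqle, the squalene epoxidase and a known control point of the pathway (chromosome 15, 59315092 to 59331193), was at 104, 91.5 and 87.3 TPM with sECM only, 106, 86.6 and 82.3 TPM with GFP-TC and 101, 65.04 and 64.7 TPM with ThTC. Its lowest values were those of ThTC 2 and ThTC 3, while ThTC 1 lay among the sECM only libraries. Cyp51, the lanosterol demethylase, was at 49.4, 45.05 and 50.3 TPM, 54.6, 36.9 and 40.3 TPM, and 53.6, 34.6 and 37.1 TPM, and Msmo1, a methylsterol oxidase, at 174, 151 and 157 TPM, 190.65, 134 and 125 TPM, and 165, 117 and 116 TPM. For both, replicates 2 and 3 of the cell-treated groups were below all sECM only libraries, and GFP-TC 1 was the highest of the 9. Dhcr7, the reductase that makes cholesterol from 7-dehydrocholesterol (chromosome 7, 143823167 to 143848410), was at 48.7, 44.01 and 47.3 TPM, 41.5, 40.5 and 47.9 TPM, and 40.6, 32.4 and 43.2 TPM. Here the high level of GFP-TC 1 and ThTC 1 was missing, and the ThTC libraries were all below the sECM only libraries. Tm7sf2, a sterol reductase, had its lowest value in GFP-TC 1 (5.37 TPM) and its highest in ThTC 1 (9.21 TPM), so it did not follow the other enzymes. The other 6 enzymes of the branch lay between 6.65 TPM (Hsd17b7 in ThTC 2) and 51.5 TPM (Sc5d in GFP-TC 1), with Ebp, a sterol isomerase, the steadiest of the 18 enzymes at a 1.23-fold range.

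The genes of sterol sensing split. Insig1, itself a target of SREBP-2 (chromosome 5, 28071412 to 28078662), followed the enzymes, at 59.5, 46.2 and 57.1 TPM with sECM only, 61.2, 46.9 and 45.3 TPM with GFP-TC and 56.9, 33.6 and 39.02 TPM with ThTC. Stard4, a sterol carrier of the cytosol listed with the transport genes, had a like order, at 23.1, 20.3 and 24.3 TPM, 24.9, 20.5 and 19.5 TPM, and 23.03, 14.4 and 16.2 TPM. Srebf2 (chromosome 15, 82147269 to 82205379) did not have the high replicate 1: it was at 152, 128 and 150.4 TPM with sECM only, 130.25, 150.2 and 146 TPM with GFP-TC and 127, 97.6 and 117 TPM with ThTC. Its 3 ThTC libraries were below the other 6, although ThTC 1 (127.35 TPM) was only just below sECM only 2 (127.83 TPM). Srebf1, which encodes the SREBP-1 proteins best known for fatty acid genes, was at 80.4, 77.5 and 84.9 TPM, 73.1, 92.1 and 86.5 TPM, and 74.4, 66.3 and 77.05 TPM. Srebf1 overlapped between the cell-treated groups, and its ThTC libraries lay below the sECM only ones. The highest value was 1.39 times the lowest for Srebf1, 1.40 for Insig2 and 1.43 for Scap.

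Among the efflux genes the exporters and Nr1h3 had their lowest values where the enzymes were highest, in GFP-TC 1, and their range was wider. Abcg1, which exports cholesterol to lipoprotein particles (chromosome 17, 31057694 to 31117984), was at 11.1, 11.4 and 13.2 TPM with sECM only, 5.02, 13.7 and 20.8 TPM with GFP-TC and 11.4, 18.2 and 27.7 TPM with ThTC, a 5.52-fold range and the widest of the 32 genes. Abca1, the exporter to lipid-free apolipoprotein (chromosome 4, 53030789 to 53159988), was at 11.5, 12.8 and 15.7 TPM, 8.16, 18.4 and 18.6 TPM, and 12.8, 19.7 and 21.3 TPM. Both were lowest in GFP-TC 1 and highest in ThTC 3. Nr1h3, the liver X receptor of macrophages and other metabolic cells (chromosome 2, 91184061 to 91202829), was at 7.43, 4.89 and 10.9 TPM, 3.91, 6.54 and 9.39 TPM, and 6.31, 11.70 and 11.72 TPM, while Nr1h2, the widely expressed receptor, stayed between 106 and 130.4 TPM. Soat1, which esterifies cholesterol for storage, was between 44.2 and 64.2 TPM, with ThTC libraries within 50.5 to 51.3 TPM.

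The difference between the synthesis and efflux medians within a library does not depend on how libraries are scaled to each other. The median centred log2 level of the 18 enzymes minus that of the 6 efflux and storage genes was 0.29, 0.22 and 0.04 in the sECM only libraries, 0.71, -0.21 and -0.30 in the GFP-TC libraries, and 0.42, -0.70 and -0.65 in the ThTC libraries. GFP-TC 1, with the largest positive difference, had the lowest sum of monocyte and macrophage markers (1802 TPM), and ThTC 2 and ThTC 3, with the most negative ones, had the highest (6212 and 6237 TPM). ThTC 1 had 4207 TPM of these markers and GFP-TC 2 had 3298 TPM, so the order was not the same throughout. Oligodendrocyte markers were high in ThTC 3 and GFP-TC 3 (2513 and 2069 TPM) but at 667 TPM in ThTC 2, and proliferation markers ran from 583 TPM in ThTC 3 to 815 TPM in sECM only 3. The part of these cell types in the difference was not tested.

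**Figure D3:**
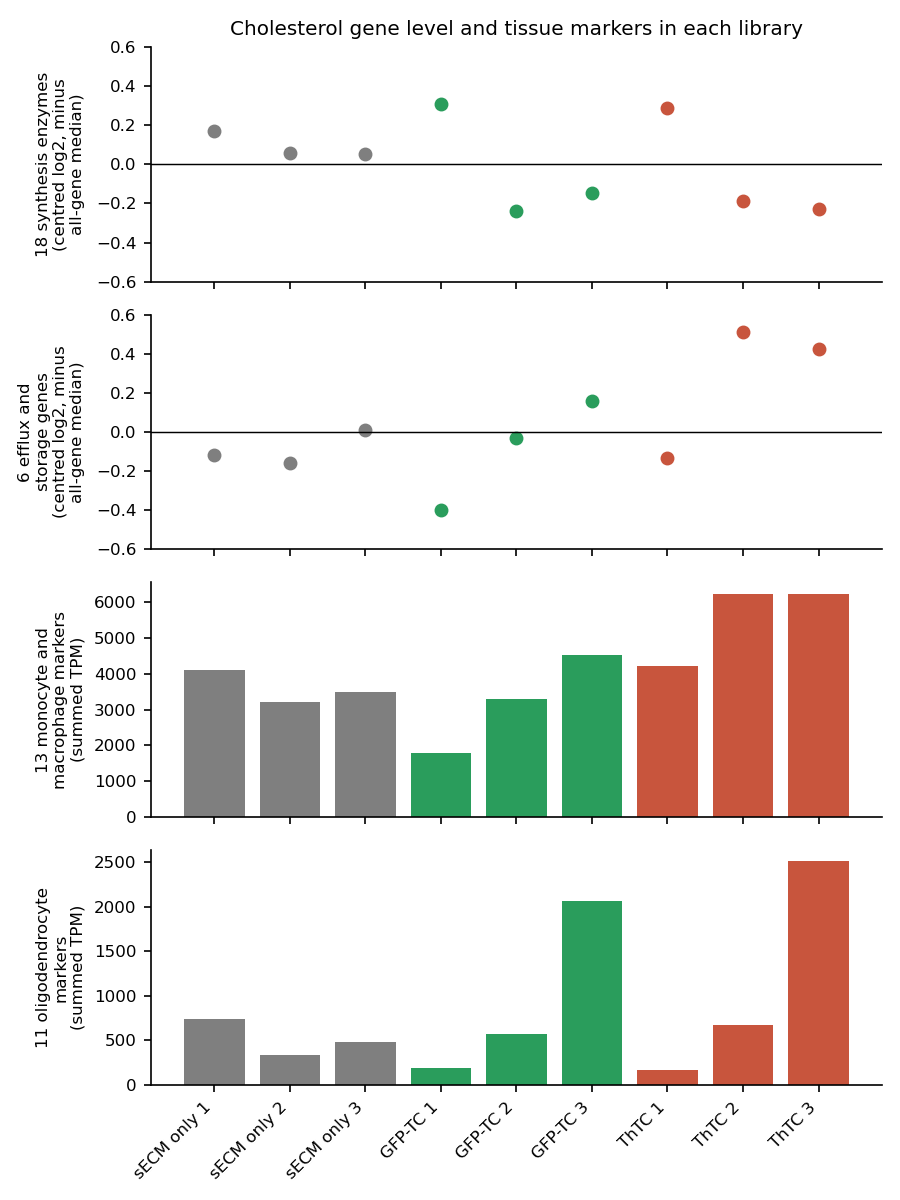
Median level of the 18 synthesis enzymes and of the 6 efflux and storage genes in each library (points, centred log2 minus the median of all tested genes) above the summed TPM of monocyte and macrophage markers and of oligodendrocyte markers (bars from 0), coloured by group. The enzymes are at 0.31 and 0.29 in GFP-TC 1 and ThTC 1 and below 0 in replicates 2 and 3 of both cell-treated groups, and the efflux genes reach 0.51 and 0.42 in ThTC 2 and ThTC 3.

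Between ThTC and GFP-TC the question was how tumours given the factor-secreting cells differ from those given control cells. Npc2, the soluble lysosomal protein that hands cholesterol to NPC1 (chromosome 12, 84754559 to 84773112), was at 290.2, 320.5 and 285 TPM with ThTC and at 219, 243 and 252 TPM with GFP-TC. All 3 ThTC libraries were above all 3 GFP-TC libraries, and also above the sECM only libraries at 265, 242 and 256 TPM. The means were 298 ± 19.3 and 238 ± 16.8 TPM (SD, n = 3), a log2 fold change, on the scale of TPM + 1, of 0.33 with a standard error of 0.082 (95% interval 0.14 to 0.51). In limma, a moderated linear model across all genes, its Benjamini-Hochberg adjusted p was 0.32, so Npc2 did not pass at 0.05. Its membrane partner Npc1 had 33.6, 34.9 and 41.03 TPM in ThTC libraries against 29.8, 46.5 and 46.7 TPM in GFP-TC libraries, so the partners did not share a pattern. Npc2 is abundant in macrophages, and the sums of macrophage markers given above were also higher in the ThTC libraries, with an overlap with GFP-TC; their part in the Npc2 values was not tested.

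Srebf2 and Hmgcs1 were the members with the next smallest p, both with lower means in ThTC. Srebf2 was at 114 ± 15.1 TPM against 142 ± 10.5 TPM (log2 fold change -0.32 ± 0.12 SE, limma adjusted p = 0.32). Hmgcs1 was at 55.3 ± 7.15 TPM against 65.5 ± 1.40 TPM (-0.25 ± 0.098 SE, limma adjusted p = 0.32). Scap and Srebf1 followed at -0.23 and -0.20 with overlapping groups (adjusted p = 0.34 and 0.37). ThTC 2 had the lowest value of the 9 libraries for all 4 of these genes. Without it the log2 fold changes of Srebf2 and Hmgcs1 were -0.21 and -0.14 (limma adjusted p = 0.72 each). After median-of-ratios scaling Srebf2, Hmgcs1, Scap and Srebf1 were at -0.19, -0.11, -0.09 and -0.07, and none of these 4 had an unadjusted p under 0.05.

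Altogether 0 of the 32 members were called in this comparison at an adjusted p of 0.05, as were 0 of the 13829 tested genes (0%). At an unadjusted p under 0.05 there were 1 higher and 2 lower members, together beside 14.9% of all tested genes (2.03% higher and 12.9% lower). After median-of-ratios scaling, another way to set libraries level, there were 3 higher and 0 lower members, with 1336 of all tested genes under 0.05 in place of 2065. No overlap between the groups was found for 1 higher member (2.2% of all tested genes) and 2 lower ones (16.9%), or 3 members beside 19.1% of all tested genes. Of the 18 enzymes 15 had lower means with ThTC, with a median log2 fold change of -0.09, where 66.2% of all tested genes had lower and 33.8% higher means and their median was -0.10. The same scaling moves the median of all genes to 0.02, and 6 of the 18 were lower and the median was 0.04. Without GFP-TC 1 the count of lower enzymes was 7, and the median was 0.01. With GFP-TC 2 or GFP-TC 3 left out the median was -0.18 or -0.14. Leaving out ThTC 1, 2 or 3 gave -0.25, -0.01 or -0.04. The 6 efflux and storage genes had 5 higher means and a median of 0.19, led by Abcg1 (0.61, 95% interval -0.44 to 1.66) and Nr1h3 (0.54). This median was 0.32 after median-of-ratios scaling. It was -0.04 without GFP-TC 1, 0.10 without ThTC 2, 0.09 without ThTC 3, 0.30 without GFP-TC 2, 0.34 without GFP-TC 3 and 0.46 without ThTC 1. The median of all tested genes also moved in these refits, so both sets are to be read beside it. All tested genes had -0.21 without GFP-TC 1 and -0.18 without ThTC 3. They had -0.08 without GFP-TC 2 or ThTC 1, and -0.07 without GFP-TC 3 or ThTC 2.

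GFP-TC and ThTC libraries numbered 1 or 3 deviated together from their group means (correlations 0.74 and 0.87). Those numbered 2 did so only weakly (0.12). All 3 pairs were also compared by number. Abcg1, Abca1 and Nr1h3 were higher with ThTC in 3 of 3 pairs: by 1.04, 0.39 and 0.40 for Abcg1, 0.59, 0.09 and 0.18 for Abca1 and 0.57, 0.75 and 0.29 for Nr1h3 on the log2 scale. That made 3 of 6 efflux and storage genes, where 1663 of all 13829 tested genes were higher in every pair. Of the 18 enzymes 9 were lower in every pair, where 32.6% of all tested genes were, and 3 (Pmvk, Tm7sf2 and Ebp) were higher in every pair. Among the 9, Sqle differed by -0.07, -0.41 and -0.34. A limma fit of these 6 libraries with a block for the shared number gave adjusted p = 0.20 for Abcg1 and 0.22 for Npc2 and for Nr1h3. It gave 0.26 for Srebf2 and 0.28 for Sqle. In that fit 0 members were called, where 8 of the 13829 tested genes were. The number of members at an unadjusted p under 0.05 was 5 in place of 3, and that of all tested genes 2392 in place of 2065. What a shared number means is not in the labels, and the pairing is an assumption.

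**Figure D4:**
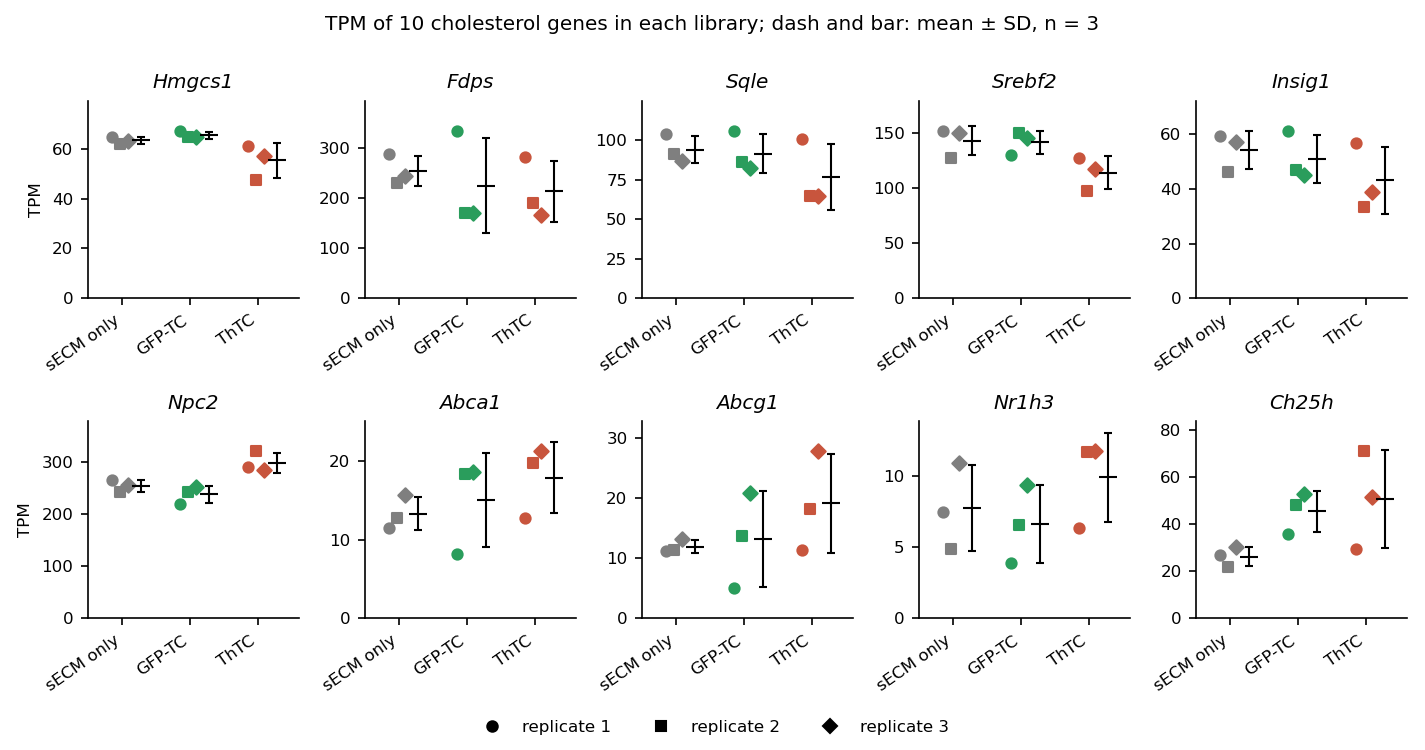
TPM of 10 of the genes in every library, by group, with the mean ± SD (dash and bar, n = 3) beside the points; marker shapes give the replicate number and every axis starts at 0. All 3 ThTC libraries are above the others for Npc2 and below them for Hmgcs1 and Srebf2, while Fdps, Abcg1 and Nr1h3 spread more within the cell-treated groups than between them. For Srebf2, ThTC 1 is only just below sECM only 2.

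Against sECM only, ThTC was compared with tumours whose label names no cells; the ThTC libraries are those of the comparison above. Ch25h, which makes the oxysterol 25-hydroxycholesterol and is a known interferon-inducible gene (chromosome 19, 34473783 to 34475148), was at 29.3, 70.96 and 51.7 TPM with ThTC and 26.7, 21.8 and 30.3 TPM with sECM only. ThTC 2 and ThTC 3 were above every sECM only library, while ThTC 1 lay among them. The means were 50.7 ± 20.8 and 26.3 ± 4.23 TPM (SD, n = 3; log2 fold change 0.85 ± 0.30 SE, limma adjusted p = 0.69), and without ThTC 2 the log2 fold change was 0.56. Srebf2 (114 ± 15.1 against 143 ± 13.5 TPM, log2 fold change -0.33 ± 0.12 SE) and Npc2 (298 ± 19.3 against 255 ± 11.5 TPM, 0.23 ± 0.082 SE) did not overlap between groups (limma adjusted p = 0.69 each). For Srebf2 the groups were barely apart, at 127.35 TPM in ThTC 1 and 127.83 TPM in sECM only 2. Dhcr7 and Hmgcs1 had lower means with ThTC, by -0.27 and -0.20 on the log2 scale, with no overlap (adjusted p = 0.69), and without ThTC 2 by -0.15 and -0.10.

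Again 0 of the 32 members were called, with 0% of all tested genes. Unadjusted p was under 0.05 for 2 higher and 1 lower members (1.54% and 5.36% of all tested genes, 6.9% in all). The groups did not overlap for 1 higher member, Npc2 (5.03% of all tested genes), and for 5 lower ones, Hmgcs1, Dhcr7, Srebf1, Srebf2 and Scap (12.1%), so 3 of the 5 genes of sterol sensing were among them. No overlap was found for 17.1% of all tested genes. The 18 enzymes had a median log2 fold change of -0.20 against -0.03 for all tested genes, with 14 lower means (55.6% of all tested genes), and of -0.16 against 0.01 after median-of-ratios scaling, with 13 lower. Without ThTC 2 the median of the enzymes was -0.08, with 11 lower, and without ThTC 1 it was -0.34, with 16 lower. The efflux and storage genes had a median of 0.36, with 5 of 6 means higher (44.4% of all tested genes). This median was 0.22 without sECM only 2 or ThTC 3, 0.54 without sECM only 3 and 0.60 without ThTC 1, and 0.23 with brain cell markers as a covariate. In the refits named for both medians, that of all tested genes lay between -0.10 (without ThTC 3) and 0.003 (without sECM only 3). The number of members at an unadjusted p under 0.05 was 0 without ThTC 2, 1 without sECM only 2, 2 without sECM only 1 or 3, 11 without ThTC 1 and 3 without any other single library. Over all tested genes the count moved too, from 954 in the main fit to 332 without ThTC 2 and 1594 without ThTC 1. It was 982, 528 and 394 without sECM only 1, 2 and 3, and 1429, 1033 and 959 without GFP-TC 1, 2 and 3.

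GFP-TC against sECM only compared tumours given control cells with those whose label names no cells. Ch25h was at 35.6, 48.1 and 52.6 TPM with GFP-TC, above all 3 sECM only libraries (45.5 ± 8.81 against 26.3 ± 4.23 TPM, log2 fold change 0.76 ± 0.30 SE, limma adjusted p = 0.997). Between ThTC and GFP-TC the Ch25h difference was 0.08 (95% interval -0.60 to 0.76). Insig2 had the next smallest p (19.3 ± 1.35 against 16.3 ± 1.98 TPM, 0.23 ± 0.13 SE), followed by Ebp, Npc2 and Nsdhl at -0.12, -0.10 and -0.17, all with overlapping groups and a limma adjusted p of 0.997. No other member differed by an unadjusted p under 0.05, so the count was 1 higher and 0 lower (0.499% and 0.434% of all tested genes, 0.933% in all), and 0 members were called (0%). The count was 0 without sECM only 1, sECM only 2, GFP-TC 2 or GFP-TC 3, where 80, 95, 86 and 170 of all tested genes were under 0.05. It was 2 without sECM only 3 or GFP-TC 1, where 191 and 1314 of all tested genes were, beside 129 in the main fit. The groups did not overlap for 1 higher member (3.15%) and 0 lower ones (1.08%), beside 4.23% in all. The 18 enzymes had a median of -0.06, where all tested genes had 0.08, and 12 lower means (28.2% of all tested genes were lower and 71.8% higher). After median-of-ratios scaling 17 of the 18 had lower means, with a median of -0.15, where all tested genes had -0.01. Without scaling, the median of the enzymes was -0.03 without sECM only 1, -0.01 without GFP-TC 2 or GFP-TC 3, and -0.10 without sECM only 2 or GFP-TC 1, with 9 to 15 lower means when any 1 library was left out. All tested genes had 0.06 without sECM only 1 or 2, 0.03 without GFP-TC 2 or GFP-TC 3, and 0.16 without GFP-TC 1. The 6 efflux and storage genes had a median of 0.01 in this comparison, with 3 of 6 means higher. That median ran from -0.08 without GFP-TC 2 to 0.30 without GFP-TC 1 when 1 library was left out. In the test for any difference among the 3 groups, 0 members were called (0% of all tested genes), and Npc2, Srebf2 and Ch25h had unadjusted p = 0.0103, 0.035 and 0.0383 (7.59% of all tested genes were under 0.05).

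**Figure D5:**
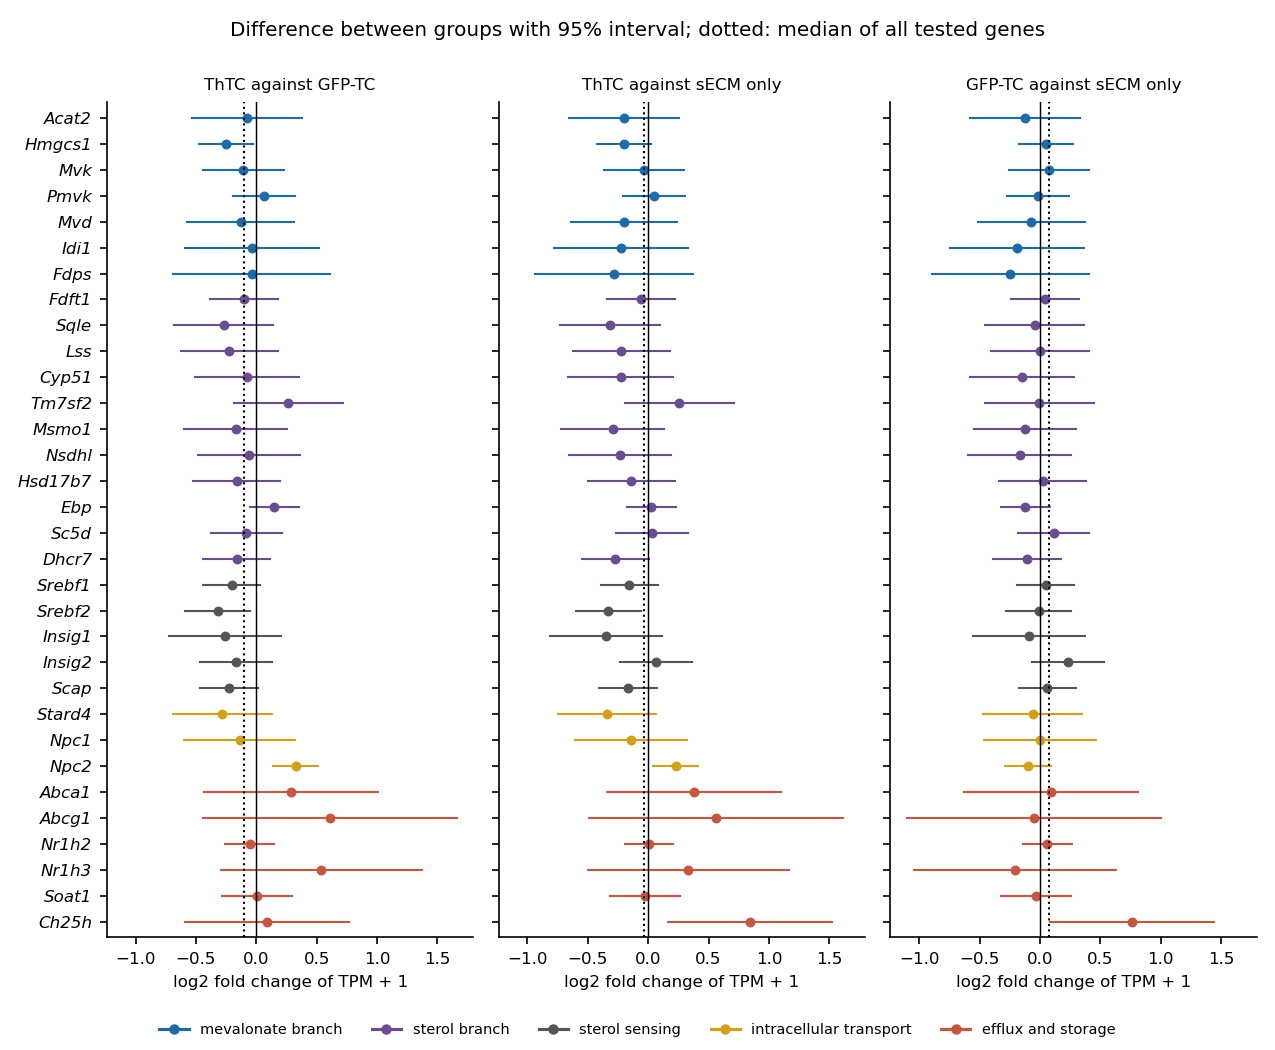
Log2 fold change of TPM + 1 for the 32 genes (rows, coloured by role) in the 3 comparisons (panels), with 95% intervals from limma; the solid line is 0 and the dotted line the median of all tested genes. In the panel of ThTC against GFP-TC the enzymes lie around the dotted line at -0.10 and Npc2 lies right of 0 at 0.33, and Ch25h is right of 0 in both comparisons with sECM only.

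Of 49 other genes of sterol handling and of SREBP-driven fatty acid synthesis, 48 were in the tables and 46 were tested, and 0 were called in any comparison. With ThTC against GFP-TC the smallest p values were those of Elovl6, a fatty acid elongase, Mbtps1, the Golgi protease that makes the initial cut in SREBP, and Acaca, the acetyl-CoA carboxylase. Elovl6 was at 30.1, 28.9 and 35.4 TPM in sECM only, 33.99, 28.5 and 30.01 TPM in GFP-TC and 27.2, 18.2 and 21.2 TPM in ThTC libraries, so all 3 ThTC libraries were below the other 6 (log2 fold change -0.47 ± 0.16 SE, limma adjusted p = 0.32; -0.50 ± 0.16 SE and adjusted p = 0.69 against sECM only). Mbtps1 was at 90.2, 92.4 and 83.6 TPM with ThTC, also below the other 6 libraries at 94.7 to 116 TPM (-0.25 ± 0.082 SE, adjusted p = 0.32). Against sECM only, Fads1, a fatty acid desaturase, and Fasn, the fatty acid synthase, followed at -0.29 and -0.44 (adjusted p = 0.69). The 14 genes of fatty acid synthesis had 12 lower means with ThTC against GFP-TC and a median of -0.19, where all tested genes had -0.10, and 9 lower and a median of -0.22 against sECM only, where all tested genes had -0.03. After median-of-ratios scaling these medians were -0.05 and -0.18, and without ThTC 2 they were -0.08 and -0.11. All tested genes had 0.02 and 0.01 after that scaling, and -0.07 and -0.01 without ThTC 2. Of the 32 tested genes of other sterol handling, 22 were lower against GFP-TC (median -0.10) and 17 against sECM only (median -0.04). With GFP-TC against sECM only, Mylip, a liver X receptor target that marks lipoprotein receptors for degradation, was at 20.1, 30.1 and 26.2 TPM against 19.7, 18.96 and 16.4 TPM, with no overlap (adjusted p = 0.997), and Gramd1b and Gpam, with the next smallest p, overlapped.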

How the data were processed

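Total RNA of tumour tissue was sequenced on the DNBseq platform (labels' protocols). Expression was deposited by the authors as TPM, per the file headers, with 2 decimals. The submitters' processing notes name HISAT, GRCm38.p6 and mm10, without versions; which program computed TPM, and from which annotation, is not given in the sources used here. Groups were taken from the sample labels. Libraries of a group shared at most 0.419% of their TPM values, so none was a copy. Gene positions and promoters came from RefSeq tables of GRCm38.p6, counted from 1.

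Values were analysed as log2(TPM + 1), which understates changes of low genes. Genes with 1 TPM or more in 3 libraries were tested with limma 3.58.1 (R 4.3.3, intensity trend) in one fit of 9 libraries, with Benjamini-Hochberg adjustment over all 13829 genes at 0.05. Same-numbered ThTC and GFP-TC libraries correlated at 0.74, 0.12 and 0.87 in their deviations from the group means, all over 0.1. They were therefore also compared as pairs, beside the main fit, which was unpaired. With sECM only the values ran from -0.55 to 0.28, and the number entered those comparisons only as a block among the alternatives. Tested on simulated data for ThTC against GFP-TC (13829 genes, 200 changed, 20 draws), the fit recovered 24.4% of genes changed 1.5-fold, 58.1% at 2-fold and 84.5% at 4-fold. The median number of false calls was 6. The simulated noise was independent between genes, whereas genes of these libraries deviate together. The rates also depend on the 200 planted changes, so they need not hold for these data. Statistics were printed for the 5 members with the smallest p per comparison and the 3 other pathway genes with the smallest p; members shown by library were chosen by role. The pathway's genes were matched by symbol. The members, lists and tests were chosen with earlier results of these data known. Figures used Python 3.11.15 and matplotlib 3.10.9.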

Additional observations from a re-analysis of the deposited data

How the results depend on the processing

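The count of called members was 0 in each comparison under all 19 alternatives, and in the test over 3 groups under all 17 that apply to it. Over all tested genes the highest counts were 8 between ThTC and GFP-TC, 2 between ThTC and sECM only, and 1 in the others. The smallest adjusted p of a member was 0.128 (Ch25h, ThTC against sECM only, without GFP-TC 1 and ThTC 1). The alternatives were another pseudocount (0.1 TPM), no filter, median-of-ratios scaling, no intensity trend, only the 6 libraries compared, the replicate block in 9 or 6 libraries (0 members called), a covariate of brain cell markers, each library left out in turn, and, chosen after seeing the data, leaving out GFP-TC 3 with ThTC 3 or GFP-TC 1 with ThTC 1. The 15 differences of members with the smallest p kept their sign in all 19. They were picked by that p in these same data, so a kept sign is no independent check. Several alternatives also cannot change a fold change: no filter, no intensity trend, the block, only the 6 libraries compared, and leaving out a library of the third group. Npc2 with ThTC against GFP-TC was between 0.27 and 0.46 with an unadjusted p of at most 0.0176 (adjusted p 0.143 to 0.75). For GFP-TC against sECM only, Nsdhl ran from -0.01 without GFP-TC 2 to -0.30 without GFP-TC 1, and Npc2 was -0.04 without GFP-TC 1. The number of members at an unadjusted p under 0.05 was less stable. For ThTC against GFP-TC it was 3, but 1 without GFP-TC 2, ThTC 2, or GFP-TC 3 with ThTC 3. It was 5 with the covariate, 6 without ThTC 1 and 7 without GFP-TC 1 and ThTC 1. Over all tested genes the counts were 2065 in the main fit and 770, 779 and 1499 in the settings with 1 member. They were 3372 with the covariate and 2125 without ThTC 1. For ThTC against sECM only the number of members was 3, but 8 and 6 with the block in 9 and 6 libraries. Over all tested genes the block gave 895 and 1068, beside 954 in the main fit. Without GFP-TC 1 and ThTC 1 the number of members was 16, and 6 for GFP-TC against sECM only. Without those 2 libraries the count over all tested genes also grew, from 2065 to 2823, 954 to 2413 and 129 to 1543 in the 3 comparisons. Where 1 library was left out of a group of 3, the spread was pooled over groups. TPM keeps no depth, so counting error cannot be given, and 3 libraries a group limit what small differences can pass.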
